A study of Mus musculus with 6 samples.

Results

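The machinery that releases synaptic vesicles was followed through 34 genes in whole retina of mice lacking Atrx, a chromatin remodeller, and of control littermates. The genes were chosen as a module, and any probe set annotated with a single symbol that is 1 of the 34 was taken. This gave 37 probe sets and at least 1 for every gene, and all 34 genes were among the 15619 tested. The arrays held total RNA of retinas from male mice at postnatal day 17, which the series' design text places at the peak of amacrine and horizontal cell loss in the knockout. The 3 knockout animals had the genotype Chx10Cre+/-;Atrx flox/y and the 3 controls, called wildtype, Chx10Cre-/-;Atrx flox/y. Both groups therefore carry a floxed copy of the X-linked Atrx gene, and they differ in the Cre transgene, whose own effect cannot be told apart from that of losing Atrx. Chx10 drives Cre in retinal progenitor cells, so cells that enter the retina from elsewhere, such as microglia and vessel cells, are not expected to recombine. Each sample held the retinas of both eyes, the lens having been removed first.

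Neurons release transmitter when calcium enters the terminal and is sensed by synaptotagmins on the vesicle, which act on the SNARE proteins that pull vesicle and plasma membrane together. Complexins clamp and assist the SNARE bundle, RIM and Munc13 proteins prime it, synapsins hold the reserve of vesicles, and NSF with its SNAP adaptors takes used SNAREs apart. The retina has a pair of synapse types. Photoreceptors and bipolar cells release from ribbon synapses, which use syntaxin 3 and complexins 3 and 4 and lack synapsins. Amacrine cells form conventional synapses with syntaxin 1, complexins 1 and 2 and synapsins.

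The stretches of DNA just before the starts of 6 members are shown because the differences found below include both signs and these genes stand for each: Syt10, Syn2, Sv2a and Syn1 had negative differences, and Sv2b and Stx3 had small positive ones. They were picked with their values known and are not in every case the extremes. Each is the 250 bases before the start, taken from RefSeq on assembly GRCm38.p6 and written 5′ to 3′ along the gene. Where a gene had several listed starts, the most upstream was used. Capitals mark matches, on either strand, to the GC box GGGCGG, the OTX and CRX core TAATCC, the left arm of the RE1 element TTCAGCACC, or the cAMP response element TGACGTCA.
Syt10, chr15:89841861-89842110, minus strand: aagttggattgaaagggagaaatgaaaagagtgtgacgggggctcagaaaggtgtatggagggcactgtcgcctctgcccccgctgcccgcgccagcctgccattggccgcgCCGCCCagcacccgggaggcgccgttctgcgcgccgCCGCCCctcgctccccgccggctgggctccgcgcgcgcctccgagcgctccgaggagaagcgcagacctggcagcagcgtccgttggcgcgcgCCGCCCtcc
Syn2, chr6:115134652-115134901, plus strand: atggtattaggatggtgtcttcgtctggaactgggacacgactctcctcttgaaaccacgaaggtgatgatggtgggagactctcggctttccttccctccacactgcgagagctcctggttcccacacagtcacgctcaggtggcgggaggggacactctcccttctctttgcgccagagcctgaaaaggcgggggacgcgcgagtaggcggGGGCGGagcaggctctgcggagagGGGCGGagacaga
Sv2a, chr3:96180977-96181226, plus strand: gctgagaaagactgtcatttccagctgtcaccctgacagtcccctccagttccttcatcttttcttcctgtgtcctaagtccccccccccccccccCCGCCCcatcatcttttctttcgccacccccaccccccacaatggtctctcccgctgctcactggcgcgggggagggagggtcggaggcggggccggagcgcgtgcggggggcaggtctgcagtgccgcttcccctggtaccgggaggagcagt
Syn1, chrX:20920919-20921168, minus strand: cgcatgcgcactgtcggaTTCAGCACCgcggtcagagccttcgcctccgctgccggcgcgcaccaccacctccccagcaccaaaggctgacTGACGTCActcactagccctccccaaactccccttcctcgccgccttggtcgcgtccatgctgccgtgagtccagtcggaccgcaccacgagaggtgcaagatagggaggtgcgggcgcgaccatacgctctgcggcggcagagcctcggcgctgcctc
Sv2b, chr7:75309263-75309512, minus strand: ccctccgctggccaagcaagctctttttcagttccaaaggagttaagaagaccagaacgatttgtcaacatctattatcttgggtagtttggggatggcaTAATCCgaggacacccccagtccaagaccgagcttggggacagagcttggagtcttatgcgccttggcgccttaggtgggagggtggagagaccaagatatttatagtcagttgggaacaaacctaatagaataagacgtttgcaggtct
Stx3, chr19:11819404-11819653, minus strand: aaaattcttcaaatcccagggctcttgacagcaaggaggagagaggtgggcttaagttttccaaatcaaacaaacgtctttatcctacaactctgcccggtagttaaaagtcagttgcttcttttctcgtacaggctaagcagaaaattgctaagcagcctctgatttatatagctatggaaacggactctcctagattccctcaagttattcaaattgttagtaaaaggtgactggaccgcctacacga

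Of the 34 genes 26 had listed starts, 36 windows in all. The GC box was present in 22 of these 36 windows, against 32.7% of all 32851 windows of the same length, and the windows held a median of 13 CpG dinucleotides against 6 over all. Windows of Sv2b and Syp were the only member windows with the OTX and CRX core. These were 3 of 36 (8.33%), a share near the 6.25% of all windows. OTX2 and CRX are transcription factors of photoreceptors and bipolar cells. The window of Syn1 alone held the RE1 arm (0.301% of all windows), a sequence bound by the repressor REST, and the cAMP element (1.55% of all windows). The motifs were picked with the expression values known, and a match in letters is no evidence of binding.

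Values are log2 expression values made by the authors with RMA, a method that removes background, forces a common distribution on the arrays and condenses each probe set to 1 number. A difference of 1 is therefore a 2-fold difference, and background signal shrinks the folds of dim genes. Where a gene had several probe sets past a floor of 5, the brightest stood for it. Array medians ran from 5.57 to 5.64. Atrx itself read 8.42, 8.72 and 8.33 in knockout 1, 2 and 3 and 9.04, 8.86 and 9.17 in wildtype 1, 2 and 3, so every knockout value lay below every wildtype value (log2 change -0.53, limma adjusted p = 0.115); where its probe set lies against the floxed part was not examined. Rod genes were bright on all arrays (mean of 6 markers 11.77 to 11.90), the level a retina should show. Lens RNA was plentiful in knockout 2 and wildtype 1, where 12 lens markers averaged 10.10 and 11.40; elsewhere they averaged 5.69 to 6.15. All adjusted p-values here come from limma over all 15619 genes, and the arrays' number, 3 against 3, limits the precision.

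None of the 34 release genes was called between knockout and wildtype by limma at an adjusted p under 0.05, a threshold that 0.826% of all tested genes passed (0.346% lower and 0.48% higher in knockout). At an unadjusted p under 0.05, 5 members were lower and 0 higher in knockout retina, against 6.5% and 6.99% of all genes. The differences leaned one way: 27 of 34 members (79.4%) had a negative log2 change, against 49.1% of all genes, and their median was -0.14 against 0.0027 over all genes. A log2 change below -0.2 was seen in 9 members (26.5%, against 9.9% of all genes) and one above 0.2 in 0 (9.44% of all genes). All 3 knockout values lay below all 3 wildtype values in 10 members (29.4%, against 9.58% of all genes) and above them in 1 (2.94%, against 10.7%). These counts describe the list and give no test of it, since its genes were chosen with earlier results of these data known. In RNA from whole retina, fewer cells of a type and less RNA per cell cannot be told apart.

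**Figure D1:**
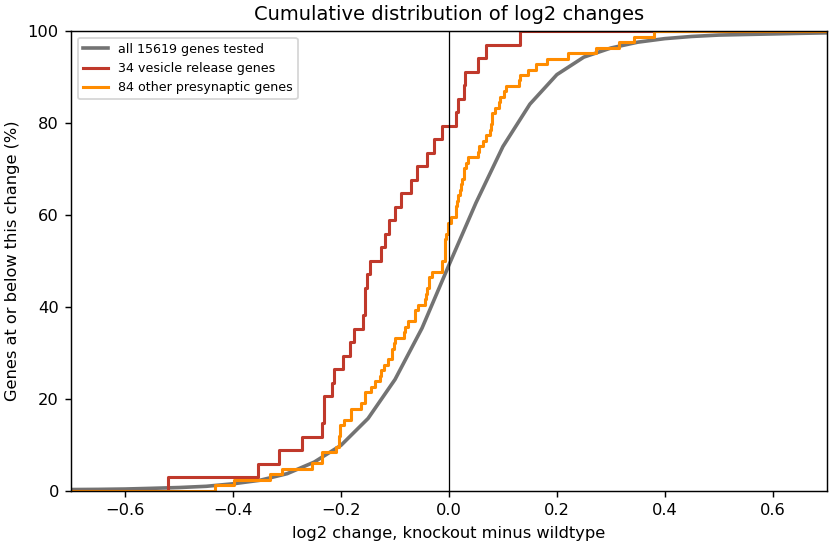
Cumulative share of genes (y axis, percent) at or below each log2 change, knockout minus wildtype (x axis), for the 34 release genes, 84 other presynaptic genes and all 15619 genes tested. The curve of the release genes crosses 0 at 79.4%, against 58.3% for the other presynaptic genes and 49.1% for all genes.

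Among the 11 synaptotagmins, a family that holds the calcium sensors of release and some forms that do not bind calcium, 8 had negative changes and 3 positive ones. Syt10, a calcium-binding synaptotagmin known from vesicles that secrete growth factor in the olfactory bulb, had the most negative change of the 34 genes. It read 7.49, 7.50 and 7.03 in knockout 1, 2 and 3 and 7.73, 7.87 and 7.98 in wildtype 1, 2 and 3. The groups did not overlap, and knockout 3 lay well below the other knockouts. The log2 change was -0.52 (SE 0.14, 95% interval -0.84 to -0.21, limma adjusted p = 0.154), a 1.43-fold lower level. It ran from -0.60 to -0.36 as each array was left out in turn, the smallest size being that without knockout 3.

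Syt13 and Syt11 were the other synaptotagmins whose groups did not overlap. Syt13, a form without the usual calcium-binding residues, read 7.91, 8.16 and 8.09 in knockout and 8.21, 8.22 and 8.38 in wildtype retina (log2 change -0.22, SE 0.094, adjusted p = 0.368). The nearest values of the groups were only 0.049 apart. Syt11, likewise not a regular calcium sensor, read 8.74, 8.73 and 8.58 against 8.94, 8.84 and 8.80 (log2 change -0.18, SE 0.082, adjusted p = 0.397). Syt6 read 6.03, 6.19 and 6.11 against 6.32, 6.46 and 6.19, with knockout 2 and wildtype 3 at the same printed value (log2 change -0.21, adjusted p = 0.370). Syt7, a slow sensor of high calcium affinity linked to delayed release, read 7.44, 7.68 and 7.42 against 7.62, 7.76 and 7.63 (log2 change -0.16); the groups overlapped through knockout 2. Syt5 was scattered in both groups, at 8.70, 8.28 and 8.43 against 8.68, 8.74 and 8.42 (log2 change -0.15).

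The fast sensors of neurons showed little difference. Syt1, the main sensor of rapid release, read 11.88, 11.98 and 11.85 in knockout and 11.90, 11.86 and 12.04 in wildtype retina (log2 change -0.03, 95% interval -0.22 to 0.16). Syt2, which does the same work at other synapses, read 6.44, 6.53 and 6.49 against 6.51, 6.42 and 6.65 (log2 change -0.04). In both genes the knockout values lay inside or next to the wildtype range. Syt3 (log2 change 0.01), Syt4 (0.02) and Syt12 (0.03) were close to 0 and had overlapping groups. Syt4 has 3 probe sets, of which the one used was by far the brightest (group means 9.68 and 9.66) and 1 lay below the floor; the third was at 5.88 in both groups.

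Of the 5 SNARE genes 4 had negative changes, all with overlapping groups. Snap25, the membrane-bound SNARE of the presynaptic side, read 12.25, 12.17 and 12.11 in knockout and 12.08, 12.09 and 12.40 in wildtype retina. Wildtype 3 was the highest array and wildtype 1 the lowest, and the log2 change was -0.01 (95% interval -0.25 to 0.22). Vamp1, a vesicle SNARE, read 8.17, 7.91 and 7.89 against 8.09, 8.27 and 8.30 (log2 change -0.23, SE 0.10, adjusted p = 0.384). Its paralog Vamp2 read 9.15, 9.35 and 9.17 against 9.28, 9.30 and 9.36 (log2 change -0.09). Knockout 1 was among the wildtype values for Vamp1, and knockout 2 for Vamp2. A further probe set that names Vamp1 together with another symbol was not used.

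The syntaxins of the 2 synapse types had changes of opposite sign. Stx1a, of conventional synapses, read 6.98, 6.81 and 7.38 in knockout and 7.12, 7.19 and 7.07 in wildtype retina (log2 change -0.07, SE 0.14). Its knockout values spread on both sides of the wildtype ones, with knockout 3 the highest of all, and the change turned positive, to 0.05, without knockout 2. Stx3, of ribbon synapses, read 11.13, 11.14 and 11.20 against 11.09, 11.11 and 11.11 (log2 change 0.05, SE 0.070, adjusted p = 0.772). It was the only member with every knockout value above every wildtype value, by a margin too small to pass any threshold used, and the groups overlapped after a second quantile normalization and after centring each array on its median. The difference between the log2 changes of Stx1a and Stx3 was -0.13, and the groups overlapped in this difference.

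Both complexins listed had non-overlapping groups. Cplx1 read 9.19, 9.21 and 9.04 in knockout and 9.21, 9.31 and 9.30 in wildtype retina (log2 change -0.13, SE 0.080, adjusted p = 0.529). Cplx2 read 8.49, 8.53 and 8.33 against 8.57, 8.65 and 8.60 (log2 change -0.16, SE 0.082, adjusted p = 0.455). In both genes knockout 3 was the lowest array, and the nearest values of the groups were 0.0069 apart for Cplx1 and 0.037 for Cplx2. The complexins of ribbon synapses, which are not among the 34, were at -0.16 for Cplx3 (overlapping groups) and 0.09 for Cplx4 (all knockout values above all wildtype values).

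The priming factors were lower in mean in all 3 cases. Unc13a, which encodes Munc13-1 and makes docked vesicles ready to fuse, read 7.86, 7.96 and 7.85 in knockout and 8.03, 8.00 and 8.19 in wildtype retina (log2 change -0.18, SE 0.083, adjusted p = 0.385). Its groups did not overlap. Unc13c, a Munc13 form best known from cerebellum, read 8.27, 8.44 and 8.24 against 8.46, 8.31 and 8.54 (log2 change -0.12). Rims1, a scaffold of the active zone, read 7.42, 7.40 and 7.19 against 7.40, 7.36 and 7.59 (log2 change -0.11). Both of these overlapped between groups.

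The synapsins, which tether the reserve of vesicles at conventional synapses, had the most negative median of the roles with more than 1 gene, -0.24. Syn2 read 8.04, 8.18 and 7.80 in knockout and 8.39, 8.31 and 8.39 in wildtype retina. The wildtype values lay close together, the knockout values were all lower, and knockout 3 was lowest. The log2 change was -0.35 (SE 0.10, 95% interval -0.59 to -0.12, limma adjusted p = 0.195), a 1.28-fold lower level. Syn1 read 8.82, 9.01 and 8.76 against 9.09, 9.18 and 9.01 (log2 change -0.23, SE 0.093, adjusted p = 0.327). Syn3 read 7.20, 7.52 and 7.21 against 7.50, 7.50 and 7.63 (log2 change -0.24, SE 0.10, adjusted p = 0.372). Knockout 2, the lens-rich knockout array, was the highest knockout for all 3 synapsins and was the array that touched or crossed the wildtype range in Syn1 and Syn3. Without both lens-rich arrays the log2 changes were -0.31 for Syn1, -0.43 for Syn2 and -0.36 for Syn3.

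**Figure D2:**
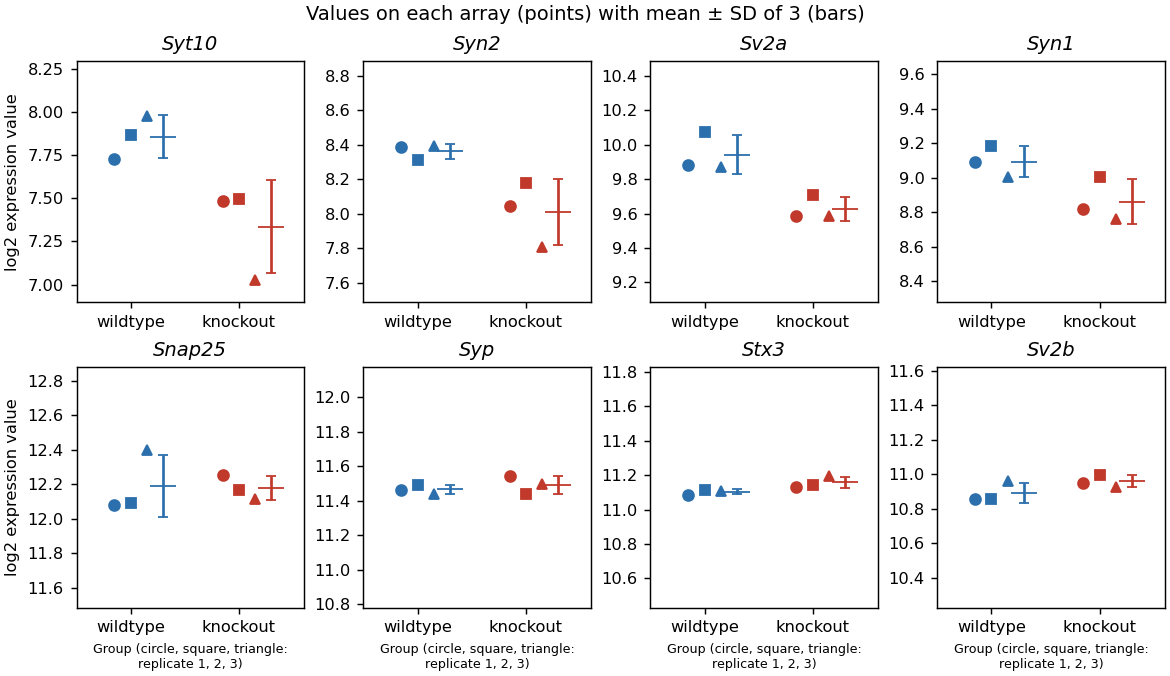
Log2 expression values of 8 release genes (y axis, the same span in each panel) in the 3 wildtype and 3 knockout arrays; points are arrays, with the replicate as symbol, and bars are the mean ± SD. Syt10, Syn2 and Sv2a have knockout values below all wildtype values, Syn1 meets at 9.01, and Snap25, Syp, Stx3 and Sv2b differ by less than 0.1 in mean.

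Among the 6 vesicle membrane proteins 4 had negative changes and 2 positive ones, and the SV2 family of vesicle glycoproteins split. Sv2a, the most widespread form, read 9.59, 9.71 and 9.59 in knockout and 9.88, 10.07 and 9.87 in wildtype retina. The groups were apart by 0.16 at their nearest values, and wildtype 2 lay well above the other wildtype arrays. The log2 change was -0.32 (SE 0.086, 95% interval -0.51 to -0.12, limma adjusted p = 0.169), a 1.24-fold lower level. Without wildtype 2 it was -0.25 (limma adjusted p = 0.509). Sv2c, a form described in starburst amacrine cells, read 6.38, 6.93 and 6.51 against 6.79, 6.81 and 7.04 (log2 change -0.27, SE 0.15, adjusted p = 0.464). Its knockout values were the most scattered of the membrane proteins, with knockout 2 inside the wildtype range. Sv2b, the form of photoreceptor and bipolar terminals, read 10.95, 11.00 and 10.93 against 10.85, 10.86 and 10.96 (log2 change 0.07, SE 0.073, adjusted p = 0.724). The difference between the log2 changes of Sv2a and Sv2b was -0.38, with no overlap between the groups in the per-array difference; this pair was singled out after its values were seen.

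The synaptophysin family split as well. Syp, synaptophysin itself and a standard marker of all vesicle terminals, read 11.54, 11.44 and 11.50 in knockout and 11.46, 11.49 and 11.44 in wildtype retina, with mixed groups and a log2 change of 0.03 (95% interval -0.14 to 0.19). A second, dim probe set of Syp lay below the floor and was not tested. Its paralog Synpr, synaptoporin, read 9.23, 9.28 and 9.18 against 9.42, 9.35 and 9.39 (log2 change -0.16, SE 0.072, adjusted p = 0.385), with no overlap. Syngr1, synaptogyrin, read 6.84, 7.23 and 7.13 against 7.24, 7.26 and 7.28 (log2 change -0.20, SE 0.11, adjusted p = 0.472). Its groups did not overlap, but the nearest values were 0.014 apart, and knockout 1 lay well below the other arrays.

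The genes of vesicle docking and SNARE recycling showed small and mixed differences. Rab3a, the GTPase that marks docked vesicles, read 10.71, 10.72 and 10.56 in knockout and 10.63, 10.74 and 10.79 in wildtype retina (log2 change -0.06). Nsf, the ATPase that pulls spent SNARE bundles apart, read 10.50, 10.73 and 10.62 against 10.72, 10.82 and 10.77 (log2 change -0.15, adjusted p = 0.481). Napa, its alpha-SNAP adaptor, read 8.32, 8.15 and 8.19 against 8.28, 8.37 and 8.30 (log2 change -0.10). Napb, the beta-SNAP of brain, had the most positive change of the 34: it read 9.93, 9.93 and 9.75 against 9.68, 9.54 and 9.99 (log2 change 0.13, SE 0.12, adjusted p = 0.676). Wildtype 3 was above every knockout value of Napb, so the groups overlapped widely. Its rank rests on wildtype 2 and knockout 2: the change was 0.032 without wildtype 2, when Syt12 was at 0.074, and 0.10 without knockout 2, when Syt12 was at 0.13.

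**Figure D3:**
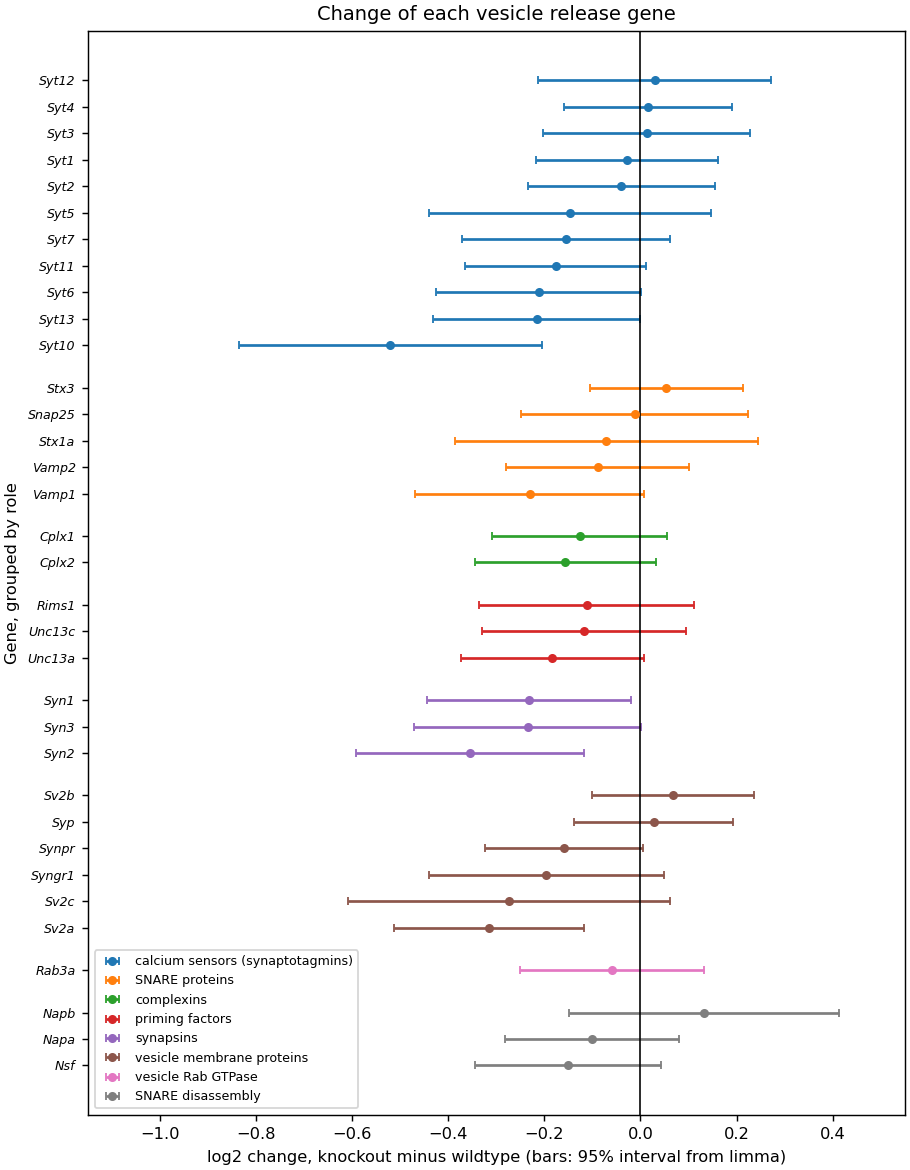
Log2 change of each of the 34 genes, knockout minus wildtype (x axis), with limma's 95% interval, grouped and coloured by role (y axis). The intervals of 5 genes, Syt10, Syt13, Syn1, Syn2 and Sv2a, lie below 0 before adjustment, and no gene passed the adjusted threshold.

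Taken gene by gene and before adjustment, the intervals bound the differences in these whole-retina values. They do not bound all 34 genes jointly, nor a difference within 1 cell type, and background compresses the differences of dim genes. For 22 of 34 members the 95% interval lay within 0.4 of 0 on the log2 scale, and for 30 within 0.5. The lowest bound was -0.84, that of Syt10, so no interval of a member reached a halving of its measured whole-retina value.

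The members shared a pattern across arrays. Knockout 3 was the lowest array for 16 of 34 members (18.7% of all genes) and wildtype 3 the highest for 16 (13.7% of all genes). On knockout 3 29 members lay below their own mean, on knockout 1 21 and on knockout 2 15. On wildtype 1, 2 and 3 the counts were 11, 9 and 6. The members' median deviation was -0.052, 0.0060 and -0.119 on knockout 1, 2 and 3 and 0.025, 0.072 and 0.088 on wildtype 1, 2 and 3. Over all genes it was 0.0057, 0.020 and -0.013 and then -0.012, 0.0017 and 0.0071, smaller but in the same order within each group. The mean of the 34 genes was 8.66, 8.71 and 8.61 in knockout 1, 2 and 3 and 8.75, 8.79 and 8.82 in wildtype 1, 2 and 3, so the groups were apart by a small step, with SDs of 0.054 and 0.035.

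**Figure D4:**
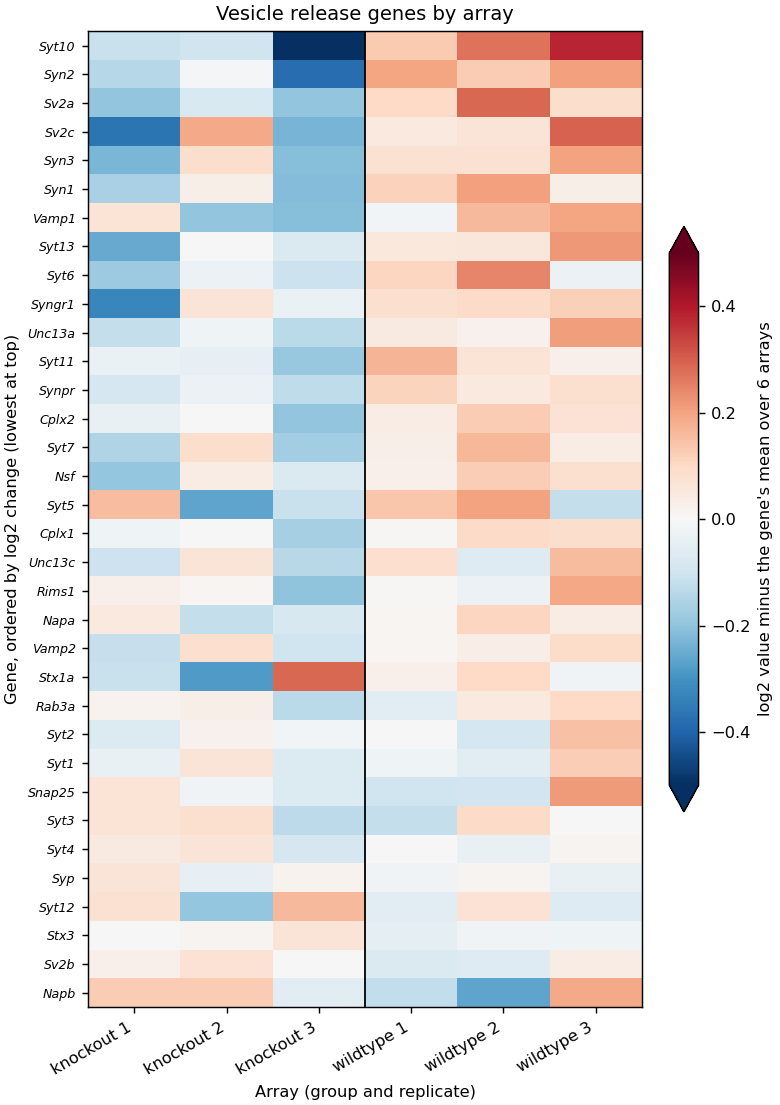
Each row is 1 of the 34 genes, ordered by log2 change with the lowest at the top, and each column an array; colour gives the log2 value minus the gene's mean over 6 arrays. Blue cells gather in knockout 3 and knockout 1 in the upper rows. Among the lowest rows Syp, Stx3 and Sv2b are pale on most arrays, whereas Napb, the bottom row, departs further from its mean on wildtype 2 and wildtype 3.

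Markers of amacrine cells were also lower in knockout retina. All 11 tested amacrine markers had negative log2 changes (median -0.37), and 4 fell in limma's test: Slc5a7 (-1.56), the choline transporter, Gad1 (-0.68), which makes GABA, Chat (-0.62), which makes acetylcholine, and Slc6a5 (-0.58), a glycine transporter. Their summed level, as a mean, was 7.50, 7.65 and 7.38 in knockout 1, 2 and 3 and 7.94, 7.98 and 8.03 in wildtype 1, 2 and 3. Within each group the arrays came in the same order as for the 34 release genes, knockout 3 lowest and wildtype 3 highest. The means over all 15619 genes had this order too, over a far smaller span. They were 7.191, 7.205 and 7.185 in knockout 1, 2 and 3 and 7.187, 7.193 and 7.194 in wildtype 1, 2 and 3. The order is thus not particular to these lists, and its cause was not tested. Of 5 horizontal cell markers 4 were negative and none was called, with Onecut1 at -0.38 (adjusted p = 0.055); array means were 7.08 to 7.39 in knockout and 7.44 to 7.48 in wildtype retina. Rod markers were split, 3 negative and 3 positive, the latter being Rp1, Cnga1 and Sag (median 0.06), with none of 6 called. Their array means were 11.874 to 11.901 in knockout and 11.769 to 11.873 in wildtype retina. The knockout means thus all lay above the wildtype ones, by a very narrow margin. Of 8 ganglion cell markers 7 were negative and none was called (median -0.06); their array means did not overlap either, at 9.11 to 9.21 in knockout and 9.24 to 9.29 in wildtype retina. Of 6 cone markers 4 were negative (median -0.13), of 7 bipolar markers 3 (median 0.01) and of 6 Muller glia markers 3 (median -0.02); none of these was called, and their array means overlapped between groups. The pigment epithelium markers overlapped between groups, with array means of 9.01 to 10.02 in knockout and 9.39 to 10.22 in wildtype retina. The part of amacrine, horizontal or ganglion cells in the lower values of the release genes was not tested.

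**Figure D5:**
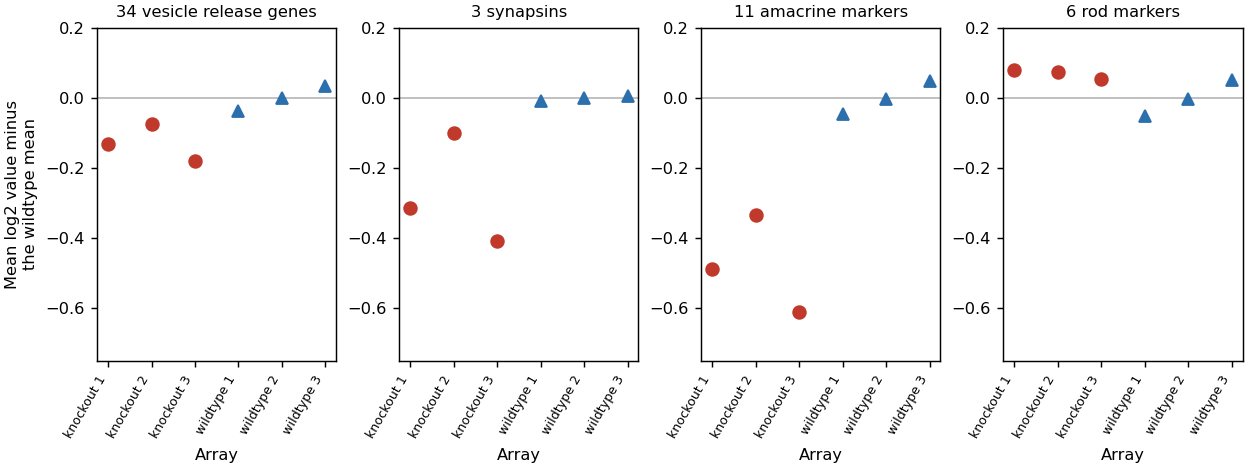
Mean log2 value on each array minus the mean of the 3 wildtype arrays (y axis) for the 34 release genes, the 3 synapsins, 11 amacrine markers and 6 rod markers; circles are knockout and triangles wildtype arrays. Knockout 3 is lowest and knockout 2 highest among the knockouts in the first 3 panels, while the rod markers lie at or above the wildtype mean in all 3 knockouts. The mean over all 15619 genes, not drawn, has the same order of knockouts.

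Sorted by synapse type, the 5 tested genes of conventional synapses (Syn1, Syn2, Cplx1, Cplx2 and Stx1a) all had negative log2 changes, from -0.35 to -0.07. Of the 3 of ribbon synapses Stx3 (0.05) and Cplx4 (0.09) were positive and Cplx3 (-0.16) negative. None of the 8 was called, and the difference between the types was not tested.

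The rest of the presynaptic machinery was read from a further list; its difference from the 34 genes was not tested. Of 92 further symbols listed, from active zone scaffolds to vesicle recycling, 85 had a probe set and 84 were tested. Of these, 49 had negative and 35 positive log2 changes, with a median of -0.01, and none was called. At an unadjusted p under 0.05 in limma 9 were lower and 4 higher, against 6.5% and 6.99% of all genes. Groups did not overlap for 15 below (17.9%, against 9.58% of all genes) and 8 above (9.52%, against 10.7%), and 58.3% were negative, against 49.1% of all genes. Pacsin1, an adaptor of membrane retrieval, came nearest to the threshold: it read 8.99, 8.96 and 8.86 in knockout and 9.45, 9.33 and 9.34 in wildtype retina (log2 change -0.43, SE 0.078, adjusted p = 0.054). It passed with a log2 floor of 6, a second quantile normalization, an intensity trend or array weights. Syt16 was at -0.31 (adjusted p = 0.132). Doc2b, a calcium sensor of release, was at 0.38 (0.135) and Rab3ip, an exchange factor for Rab GTPases, at 0.34 (0.140). Of 14 tested subunits and partners of the vesicle proton pump 8 were negative and none was called (median -0.03); the smallest p was that of Atp6v1g2, a neuronal subunit, at -0.22 (adjusted p = 0.290), followed by Atp6v0a1 (-0.21), Atp6v1h (0.17) and Atp6ap2 (0.12).

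Leaving out knockout 2 and wildtype 1, the arrays rich in lens RNA, left the lean in place. Then 28 of 34 members had negative changes and the median was -0.17. The groups of 2 did not overlap for 20 members below and 3 above, against 24.2% and 20.8% of all genes in that setting, and none was called (lowest adjusted p 0.204). Without knockout 2 alone the counts were 18 and 3, against 18.6% and 16.8% of all genes. Lens genes are not among the 34, and their part in these values was not tested beyond these settings.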

How the data were processed

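Total RNA (100 ng) of 6 retina samples was hybridised to Affymetrix mouse gene arrays. The deposited values are log2 values per probe set, made by the authors with RMA per the submitters' processing notes; its version, and the genome build of the annotation, were not given in the sources used here. Of 41345 probe sets, 23521 had 1 gene symbol in the platform annotation and only these named genes. A probe set was tested if it reached a log2 value of 5 on at least 3 of 6 arrays, and the brightest stood for a gene. Knockout minus wildtype differences came from limma (version 3.58.1; R 4.3.3; default lmFit and eBayes with genotype alone, 2-sided), with Benjamini-Hochberg adjustment over all 15619 genes; the procedure was tested on simulated data. SE is limma's moderated standard error, and the median over all genes was 0.095. The members, lists and motifs were chosen with earlier results of these data known. Members are named in full; other lists give up to 4 genes with the smallest unadjusted p. Same-numbered knockout and wildtype arrays were checked for pairing. Figures used matplotlib 3.10.9. The labels describe each sample as both eyes' retinas of a mouse but do not say which share a litter.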

Additional observations from a re-analysis of the deposited data

How the results depend on the processing

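Settings changed one at a time were no filter, a log2 floor of 6, a second quantile normalization, arrays centred on their medians, robust eBayes with an intensity trend, array weights, a replicate block, the mean of probe sets, all probe sets, each array left out, both lens-rich arrays left out and the lens mean as a covariate. No member was called under any of them, and the lowest adjusted p of a member was 0.066 (Sv2a, intensity trend). The median log2 change ran from -0.17 to -0.10 as each array was left out. The number of members whose groups did not overlap, 11, became 12 to 21 when 1 array was left out (21 without knockout 2) and 23 without both lens-rich arrays. Fewer arrays make such separation easier. With 1 array left out, 11 to 18 members lay below, against 12.5% to 18.6% of all genes, and 1 to 4 above, against 13.8% to 19.4%. Without both lens-rich arrays 20 lay below and 3 above, against 24.2% and 20.8% of all genes. Among the other presynaptic genes 1 was called with a log2 floor of 6, a second quantile normalization, an intensity trend or array weights (Pacsin1 each time), and 0 or 1 when 1 array was left out (Pclo without knockout 2). Members near 0 changed sign: Syt4 was at -0.027 after the second quantile normalization, Snap25 at 0.0072 with array weights, and without both lens-rich arrays Syt3 was at -0.081, Syt4 at -0.010 and Stx1a at 0.048. With 1 array left out the ranges were -0.066 to 0.027 for Syt1, -0.095 to 0.023 for Syt2, -0.044 to 0.082 for Syt3, -0.013 to 0.063 for Syt4, -0.045 to 0.13 for Syt12, -0.066 to 0.091 for Snap25 and -0.23 to 0.053 for Stx1a. A further 17 members kept their sign but moved by over 1.5 times in size, among them Syngr1, which ran from -0.28 (without knockout 2) to -0.081 (without knockout 1), Sv2c from -0.44 (without knockout 2) to -0.16 (without knockout 1), Syt5 from -0.26 (without knockout 1) to -0.051 (without knockout 2), Rims1 from -0.15 to -0.039 (without knockout 3) and Napb from 0.032 (without wildtype 2) to 0.26 (without wildtype 3). The cause of these shifts was not tested. Same-numbered arrays did not deviate together (correlations of -0.27, -0.38 and -0.06), whereas the lens-rich arrays, knockout 2 and wildtype 1, did (0.39). Positive correlations were also seen for knockout 3 with wildtype 2 (0.33), knockout 1 with wildtype 3 (0.22) and knockout 1 with wildtype 2 (0.15). The remaining pairs were at -0.20 (knockout 3, wildtype 1) and -0.14 (knockout 2, wildtype 3). With 3 arrays per group such correlations cannot decide whether the numbers pair arrays by litter or batch. The replicate block in limma called 0 members (lowest adjusted p 0.289) and 68 instead of 129 over all genes. The block cannot alter the number of members without overlap, 11, or, in this balanced design, the median of -0.14. Both are therefore no check of the result. Signal over background cannot be read from these values, so for the dimmest members, such as Syt12 and Syt6, a compressed difference cannot be told from none.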
